A study of Mus musculus with 8 samples.

Results

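The genes examined are 10 enzymes that build triglyceride in adipocytes, taken by name in pathway order from glycerol 3-phosphate supply to the last acylation: Pck1, Gpam, Gpat3, Gpat4, Agpat2, Agpat3, Lpin1, Lpin2, Dgat1 and Dgat2. All 10 were found among the 43629 genes of the count table, and all 10 passed the filter on low counts in every comparison. Their mRNA was measured in 3T3-L1 adipocytes, a mouse cell line that is grown as pre-adipocytes and turned into fat-storing cells by a hormone cocktail. Differentiation used insulin, dexamethasone, isobutylmethylxanthine and rosiglitazone in every culture, so that the control cells had also met a PPARγ agonist and a glucocorticoid. On day 8 the cells were left untreated, or received 2 µM A66, 0.5 mM palmitate bound to albumin, or both together, for 24 h. A66 inhibits p110α, the catalytic subunit of PI3-kinase through which insulin acts in adipocytes, and palmitate is a saturated fatty acid. Each of the 4 groups holds 2 libraries of poly(A) RNA. All cultures are of a single immortalised line, and the labels do not say whether the replicates were differentiated separately, so the p-values measure only the spread between these libraries. The control is labelled as untreated, whereas the study's methods name DMSO as the vehicle for A66 and a lower dose, and no culture with albumin alone was analysed. Palmitate and its carrier therefore cannot be told apart, and all directions below follow the treatment labels.

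Triglyceride is made by adding fatty acids one after another to glycerol 3-phosphate. White adipocytes draw that backbone from glucose through glycerol 3-phosphate dehydrogenase, or from pyruvate and lactate by glyceroneogenesis, in which Pck1 encodes the cytosolic phosphoenolpyruvate carboxykinase. Glycerol-3-phosphate acyltransferases (Gpam on the outer mitochondrial membrane, Gpat3 and Gpat4 in the endoplasmic reticulum) add the first acyl chain and AGPATs add the next. Lipins then remove the phosphate from phosphatidate, and Dgat1 and Dgat2 attach the last acyl chain. Pck1 is a classic target of cAMP, glucocorticoids and PPARγ and is repressed by insulin, loss of Agpat2 or Lpin1 causes lipodystrophy in mice, and Gpam, Lpin1 and Dgat2 belong to the lipogenic genes that insulin controls.

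The promoters of the 3 members that carry results below and were matched in the RefSeq table used are given here, each from 250 bases before the annotated start to 50 after it (GRCm38.p6, 5′ to 3′ on the gene's strand). Of the 10 genes, 7 were matched, with 10 windows in all, and Gpat4, Dgat1 and Dgat2 were not matched. Capitals mark exact matches, on either strand, to the E-box CACGTG, the nuclear receptor core AGGTCA, the FOXO motif GTAAACA, the CRE core TGACG, the CCAAT box, the GC box GGGCGG or TATAAA. The Pck1 window lies at chr2:173152823-173153122 on the plus strand, the first of 2 Gpam windows at chr19:55127189-55127488 on the minus strand, and the Gpat3 window at chr5:100845979-100846278 on the plus strand.
Pck1: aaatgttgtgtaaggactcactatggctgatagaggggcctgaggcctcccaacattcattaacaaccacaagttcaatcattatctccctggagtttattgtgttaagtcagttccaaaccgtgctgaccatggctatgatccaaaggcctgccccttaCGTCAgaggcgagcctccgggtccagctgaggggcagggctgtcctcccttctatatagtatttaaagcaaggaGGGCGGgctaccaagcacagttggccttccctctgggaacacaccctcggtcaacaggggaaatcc
Gpam: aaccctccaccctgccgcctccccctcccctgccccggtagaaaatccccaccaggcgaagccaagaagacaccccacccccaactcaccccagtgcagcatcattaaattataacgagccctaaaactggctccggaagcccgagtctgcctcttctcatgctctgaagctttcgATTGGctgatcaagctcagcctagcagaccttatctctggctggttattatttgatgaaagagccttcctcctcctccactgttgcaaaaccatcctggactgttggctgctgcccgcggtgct
Gpat3: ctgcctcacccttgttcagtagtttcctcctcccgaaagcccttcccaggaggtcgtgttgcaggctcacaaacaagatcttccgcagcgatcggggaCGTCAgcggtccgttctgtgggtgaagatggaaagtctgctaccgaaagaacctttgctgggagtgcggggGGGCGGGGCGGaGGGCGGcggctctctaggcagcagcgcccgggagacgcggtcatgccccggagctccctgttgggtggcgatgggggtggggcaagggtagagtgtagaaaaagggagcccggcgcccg
The Pck1 window holds a CRE core on the reverse strand 90 bases before the start, the element class through which cAMP acts, and a GC box 16 bases before it. A CRE core stood in 20.8% of all 32851 mouse promoter windows of this length, and a GC box in 35.7%. The printed Gpam window holds a single CCAAT box on the reverse strand, 74 bases before the start, a motif found in 37.4% of windows. The Gpat3 window holds a CRE core 152 bases before the start and 3 GC boxes at 81, 76 and 69 bases before it, the first pair sharing a base. The second Gpam window, not printed, holds an AGGTCA core 196 bases before its start, 2 CRE cores at 31 and 9 bases before it and a GC box 16 bases before it. None of the 3 printed windows held the E-box, the AGGTCA core, the FOXO motif or TATAAA, which stood in 7.15%, 16.3%, 3.65% and 13.6% of all windows. These are matches of letters and describe the windows only.

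Library totals lay between 42247091 and 57529803 counts, so that 3 counts, taken as the floor, correspond to 0.0521 to 0.0710 CPM (counts scaled to a common library size). Every member stood far above it. The floor covers counting error only, whereas the 95% intervals of the differences come from edgeR and include the spread between replicates. The cells carried the markers of adipocytes: none of 12 adipocyte markers was at 0, and their summed level ranged from 8020 to 9879 CPM. Of 12 preadipocyte or fibroblast markers, Dlk1 and Dpp4 were at 0 in every library and the summed level ranged from 4402 to 5202 CPM. The highest of them were Col3a1, at 2952 to 3536 CPM, and Col1a1, at 576 to 773 CPM. In such bulk RNA, fewer cells of a type and less RNA per cell cannot be told apart. A66 has no targeted transcript by which the labels could be checked. Of 10 genes that insulin lowers through FOXO factors, 8 had higher values with A66 alone (median log2 difference 0.06), and none passed the test in edgeR or in DESeq2. With A66 added to palmitate, 6 had higher and 4 lower values (median 0.03), and edgeR called 1 in each direction.

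Pck1 (ENSMUSG00000027513, chr2:173153048-173159273, plus strand, GRCm38) was the most variable member. Its level was 103 and 88.5 CPM in the untreated libraries, 111 and 94.5 CPM under A66, 76.5 and 104 CPM under palmitate, and 60.3 and 79.4 CPM under the combination of palmitate plus A66. Both libraries of the combination were below every untreated and every A66 library, but 1 of them was above a palmitate library. The highest library held 1.85 times the CPM of the lowest, against 1.09 to 1.35 times for the other 9 members. The replicates differed most with palmitate, by 0.45 on the log2 scale.

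Among the glycerol-3-phosphate acyltransferases, Gpam (ENSMUSG00000024978, chr19:55067268-55127238, minus strand) gave 99.9 and 101 CPM in untreated cells, 98.1 and 94.4 CPM under A66, 89.2 and 87.4 CPM under palmitate, and 86.3 and 90.7 CPM with both. The 4 libraries with palmitate were all below the 4 without it. Gpat3 (ENSMUSG00000029314, chr5:100845713-100899102, plus strand) gave 143 and 139 CPM in untreated cells, 138 and 135 CPM under A66, 132 and 138 CPM under palmitate, and 115 and 122 CPM with both. Here the 2 libraries of the combination stood apart below the other 6. Gpat4 (ENSMUSG00000031545, chr8:23171265-23208346, minus strand), the other microsomal enzyme of this step, was the steadiest member, with libraries between 150.3 and 164 CPM. Exons of Gpat3 share 1052 of 3502 bases with an antisense transcript, 4930458D05Rik, and 259 bases with Gm42987 on the same strand. Whether counting used strand is not given in the sources used here, and reads of such overlapping genes could not be separated.

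Agpat2 (ENSMUSG00000026922, chr2:26593057-26604417, minus strand), the main AGPAT of fat, ranged from 124 to 151 CPM, and both extremes came from treated groups, A66 and palmitate. Agpat3 (ENSMUSG00000001211, chr10:78269178-78352489, minus strand) ranged from 136 to 154 CPM. Both overlap a neighbour on the opposite strand, Agpat2 by 64 bases with Egfl7 and Agpat3 by 16 bases with Gm40709. Lpin1 (ENSMUSG00000020593, chr12:16535669-16610966, minus strand), the main lipin of adipocytes, gave 203 and 197 CPM in untreated cells, 186 and 169 CPM under A66, 171 and 184 CPM under palmitate, and 158 and 172 CPM with both. The 6 treated libraries all lay below both untreated ones. Lpin2 (ENSMUSG00000024052, chr17:71182560-71249817, plus strand) stayed between 47.8 and 53.0 CPM.

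Dgat1 (ENSMUSG00000022555, chr15:76502015-76511953, minus strand), the endoplasmic reticulum enzyme that also re-esterifies fatty acids released by lipolysis, ranged from 193 to 229.9 CPM. Dgat2 (ENSMUSG00000030747, chr7:99153658-99182719, minus strand), linked to newly made fatty acids and lipid droplets, gave 190.3 and 189.5 CPM in untreated cells, 185 and 166 CPM under A66, 156 and 175 CPM under palmitate, and 141 and 154 CPM with both. Both untreated libraries were above all 6 treated ones, and both libraries of the combination were below all others. Across the 4 group means, untreated cells were highest for 8 of the 10 genes, against 26.5% of all genes tested, and palmitate plus A66 was lowest for 7 of the 10, against 28.1%. The exceptions at the top were Pck1, highest under A66, and Agpat2, highest with palmitate. No test was made of these counts, and the 10 genes were read from the same 8 libraries.

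**Figure D1:**
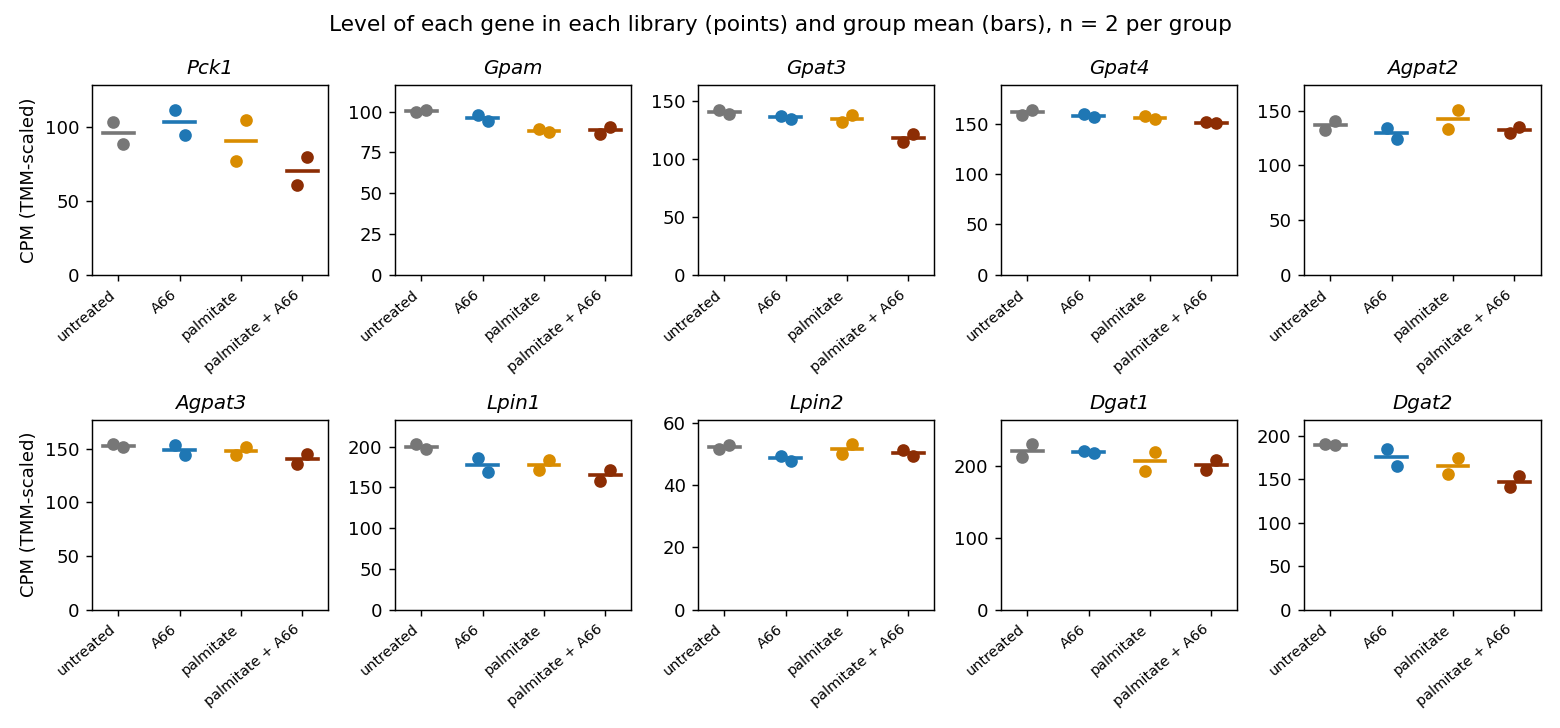
Level of each of the 10 genes in each of the 8 libraries, in CPM on TMM-scaled library sizes, by treatment group. Points are libraries and horizontal bars are group means (n = 2). The Dgat2 libraries of the combination, 141 and 154 CPM, sit below all others, while the Pck1 replicates spread widely within each group.

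Between genes, levels were compared per kilobase (kb) of exonic sequence. In untreated cells Dgat1 came first at 72.4 ± 3.97 CPM per kb (SD, n = 2), followed by Agpat2 at 64.1 ± 2.53 and Dgat2 at 61.6 ± 0.181 CPM per kb. Agpat2 and Dgat2 did not differ beyond this spread. Gpat3 followed at 40.2 ± 0.812 CPM per kb, Pck1 at 27.9 ± 3.00 CPM per kb and Gpat4 at 24.1 ± 0.516 CPM per kb. Lpin1 at 20.7 ± 0.405 and Agpat3 at 19.7 ± 0.188 CPM per kb were above Gpam at 15.1 ± 0.127 CPM per kb, and Lpin2 was lowest at 4.26 ± 0.0703 CPM per kb. The length used matters for the middle of this order: per kb of the longest coding transcript, Lpin1 ranked 6 and Gpat4 ranked 7 in untreated cells. Dgat1, Agpat2, Dgat2 and Gpat3 held ranks 1 to 4 in all 4 groups with either length. With palmitate plus A66, Pck1 at 20.4 ± 3.93 CPM per kb stood at rank 6 instead of 5, behind Gpat4 at 22.6 ± 0.0990 CPM per kb, a gap within the spread of Pck1.

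**Figure D2:**
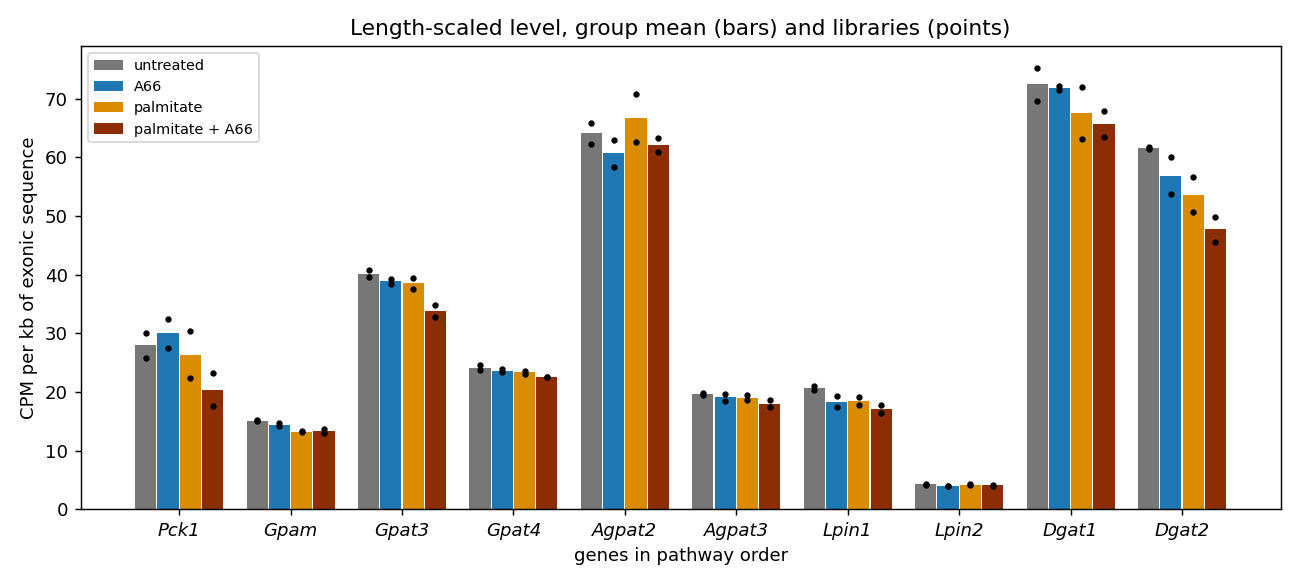
Level of the 10 genes, in pathway order, in CPM per kb of exonic sequence. Bars are group means and points the 2 libraries of each group. Dgat1, Agpat2 and Dgat2 lead in every group and Lpin2 is lowest, at 4.26 CPM per kb in untreated cells.

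Enzymes of the same step were also compared by the ratio of their per-kb levels in each library. The ratio of Dgat2 to Dgat1 was 0.887 and 0.817 in untreated libraries, 0.831 and 0.752 under A66, 0.803 and 0.787 under palmitate, and 0.720 and 0.734 with both, so that the combination lay below all other libraries. The ratio of Gpat3 to Gpat4 was 1.45 and 1.55 with the combination, below the range of 1.60 to 1.71 in the other 6 libraries. The ratio of Agpat2 to Agpat3 was 3.38, 3.64, 3.49 and 3.41 in the 4 libraries with palmitate and 3.15, 3.37, 3.20 and 3.16 in the 4 without it, with no overlap but a narrow gap. The ratio of Lpin1 to Lpin2 was 4.99 and 4.74 in untreated libraries, 4.78 and 4.47 under A66, 4.34 and 4.40 under palmitate, and 3.92 and 4.41 with the combination, so that the 4 libraries with palmitate lay below the 4 without it. These ratios are a description, and no test was run on them.

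The first comparison asked what p110α inhibition alone did, in the 4 libraries without palmitate. None of the 10 genes passed an adjusted p of 0.05 in edgeR's quasi-likelihood test or in DESeq2, where 1.84% of all 14158 genes did in edgeR (1.07% higher, 0.77% lower). By unadjusted p under 0.05 the count was 2 of 10, against 12.8% of all genes. Of the 10, 9 had lower values and Pck1 alone had a higher one, with a median log2 difference of -0.05 over the members and -0.00 over all genes. In 5 of the 10 both A66 libraries lay below both untreated ones, against 22.3% of all genes. Lpin1 came nearest, at a log2 difference of -0.17 (SE 0.05, 95% interval -0.26 to -0.08, adjusted p = 0.0551), or 0.889 of the untreated level. Its adjusted p ranged from 0.00715 to 0.107 over the other settings and from 0.00150 to 0.642 when 1 library was left out. Dgat2 stood at -0.11 (SE 0.05, adjusted p = 0.295), and between -0.19 and -0.03 when 1 library was left out. Pck1 stood at 0.11 (SE 0.06, 95% interval -0.02 to 0.24, adjusted p = 0.504), with overlapping groups, and single libraries decided its value. It was 0.22 (adjusted p = 0.00124) without the first untreated library, 0.23 (0.171) without the second A66 library, 0.01 (0.972) without the second untreated library and -0.01 (0.995) without the first A66 library. The other 7 lay between -0.10 (Lpin2) and -0.01 (Dgat1), with adjusted p from 0.442 to 0.960.

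Of 20 other genes of the pathway, 15 were tested for A66 and 1 passed. Aqp7, the glycerol channel of adipocytes, rose by 0.24 on the log2 scale (adjusted p = 0.0293), from 46.2 and 42.5 CPM to 54.7 and 49.9 CPM. Its call was lost in DESeq2 (adjusted p = 0.0542), with all 8 libraries in the fit (0.0782) and without the first A66 library (0.532) or the second untreated one (0.0683). Of 14 regulators, Nr3c1, the glucocorticoid receptor, rose by 0.16 (adjusted p = 0.0323), from 170.1 and 169.7 CPM to 189 and 191 CPM. Its call was lost without either A66 library (adjusted p = 0.233 and 0.327) and with scaling by library size alone (0.0557), while its difference stayed at 0.17, 0.16 and 0.15. In the same comparison 9 of 12 adipocyte markers had higher values and 0 passed in edgeR or DESeq2. Of the 12, 6 had an unadjusted p under 0.05 in edgeR, in both directions. Adipoq (0.11), Fabp4 (0.09), Plin1 (0.09) and Cfd (0.14) were higher, and Cidec (-0.09) and Slc2a4 (-0.15) were lower. Of the preadipocyte and fibroblast markers 1 of 10 tested was called, Acta2, a smooth muscle actin, which rose by 0.23 (adjusted p = 0.0262) in this fit but not in DESeq2 (0.523), with all 8 libraries (0.251) or without the second A66 library (0.623).

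The second comparison asked what palmitate did in cells without A66. Gpam fell, to 0.878 of its untreated level (log2 difference -0.19, SE 0.04, 95% interval -0.28 to -0.10, adjusted p = 0.0320), with no overlap between the groups. It was the only member of 10 to pass, in edgeR and in DESeq2, against 1.17% of all 14587 genes (0.542% lower). The call rests on all 4 libraries compared: leaving out any of them gave an adjusted p of 0.115 to 0.120 while the difference stayed between -0.20 and -0.17. Dgat2 had a difference of almost the same size, -0.20 (SE 0.05, adjusted p = 0.0879), and Lpin1 one of -0.17 (SE 0.05, adjusted p = 0.117). Dgat2 stood at -0.28 without the second palmitate library (adjusted p = 0.0162) and at -0.12 without the first (0.579). Again 9 of 10 members had lower values, the exception being Agpat2 at 0.06 (adjusted p = 0.724), and in 6 of 10 the groups did not overlap in the lower direction, against 20.2% of all genes. Dgat1 stood at -0.10 (adjusted p = 0.460), and between -0.20 and -0.01 when 1 library was left out. Pck1 stood at -0.08 (SE 0.11, adjusted p = 0.827), where the palmitate replicates themselves were 76.5 and 104 CPM. Gpat3, Gpat4, Agpat3 and Lpin2 lay between -0.06 and -0.02, with adjusted p from 0.641 to 0.934. This comparison and the previous one use the same untreated libraries, so that a low or high untreated value moves both.

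None of 16 other pathway genes tested passed for palmitate in edgeR, although 8 had an unadjusted p under 0.05 against 12% of all genes. Of the 16, 10 had higher and 6 lower values (median log2 difference 0.04), among them Lpin3, the lipin with a low level here, at 0.53 (adjusted p = 0.105). Fitm2, a protein of lipid droplet formation, had a lower value and passed in DESeq2 only. No regulator of 14 passed in edgeR or DESeq2, and 4 had an unadjusted p under 0.05. Of 10 PPAR targets that fatty acids raise, 4 had higher and 6 lower values and none passed in edgeR, the smallest p being that of Plin2, the lipid droplet coat protein, at 0.17 (adjusted p = 0.0572), which passed in DESeq2. Of 12 adipocyte markers, 10 had lower values, with a median log2 difference of -0.07, the same to this precision as the median of the 10 enzymes. The only one called went the other way: Car3, a carbonic anhydrase of adipocytes, rose by 0.36 (adjusted p = 0.0273), and lost its call in DESeq2 (0.256) and without the second untreated (0.278) or the second palmitate library (0.129). Of 10 preadipocyte and fibroblast markers tested, 2 rose in both edgeR and DESeq2, Col1a1 by 0.25 (edgeR adjusted p = 0.00331) and Postn by 0.32 (0.00323), which encode a collagen chain and a matrix protein. Postn lost its call without the second untreated library (0.0675). The part of these markers in the enzyme differences was not tested.

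**Figure D3:**
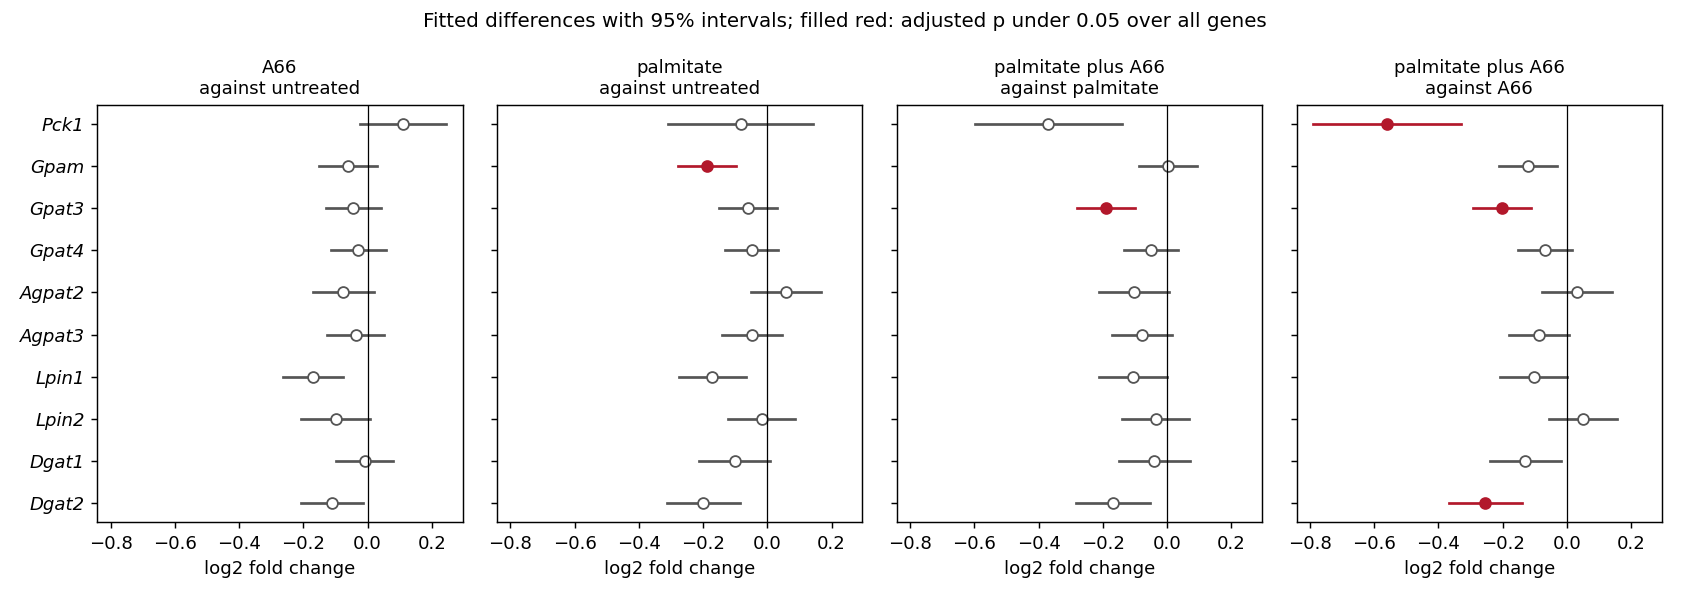
Log2 differences of the 10 genes in the 4 pairwise comparisons, with 95% intervals from edgeR, and filled points where the adjusted p was under 0.05. Gpam is called with palmitate, Gpat3 in both comparisons of the combination, and Pck1 and Dgat2 in the combination against A66 alone, with Pck1 farthest from 0 at -0.56.

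The third comparison asked what A66 did in cells that also had palmitate. Gpat3 fell, to 0.877 of its level with palmitate alone (log2 difference -0.19, SE 0.04, 95% interval -0.28 to -0.10, adjusted p = 0.0165), and the groups did not overlap. It was the only one of 10 members called in edgeR and in DESeq2, against 2.81% of all genes (1.84% lower). The call was lost without the second palmitate library (adjusted p = 0.200) and without the first library of the combination (0.247). Pck1 had the largest difference of the members, -0.37 (SE 0.11, 95% interval -0.60 to -0.14), but overlapping groups and an adjusted p of 0.0799. Without the first palmitate library Pck1 stood at -0.58 (adjusted p = 0.00205), and without the second library of the combination at -0.58 (adjusted p = 0.00826). Without the second palmitate library it stood at -0.13 (adjusted p = 0.753), and without the first library of the combination at -0.18 (adjusted p = 0.559). Dgat2 stood at -0.17 (SE 0.06, adjusted p = 0.121), with groups that did not overlap, and at -0.25 without the first palmitate library (adjusted p = 0.0237). It stood at -0.09 without the second palmitate library (adjusted p = 0.698) and at -0.10 without the first library of the combination (0.578). Gpam, the member called with palmitate, had a difference of 0.00 here (95% interval -0.09 to 0.09, adjusted p = 0.990). Agpat2 at -0.10, Lpin1 at -0.11, Agpat3 at -0.08, Gpat4 at -0.05, Dgat1 at -0.04 and Lpin2 at -0.03 had adjusted p from 0.344 to 0.822. In 3 of 10 members the groups did not overlap in the lower direction, against 22.4% of all genes.

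No pathway gene of 16 and no regulator of 14 passed in edgeR in this comparison, with 3 and 4 having an unadjusted p under 0.05 against 14.4% of all genes. Gpd1, the dehydrogenase that makes glycerol 3-phosphate from a glycolytic intermediate, passed in DESeq2 and had a log2 difference of -0.17 in edgeR (adjusted p = 0.0746). Of 12 adipocyte markers, 10 had lower values and 4 fell, Cidec by 0.23, Slc2a4 by 0.23, Retn by 0.32 and Car3 by 0.44 on the log2 scale. With 1 library left out, Cidec ranged from -0.35 to -0.11 and Slc2a4 from -0.31 to -0.15. Retn ranged from -0.37 to -0.28 and Car3 from -0.56 to -0.34. DESeq2 called only Slc2a4 and Retn of these 4 (adjusted p = 0.324 for Cidec and 0.0846 for Car3), Cidec was also lost in a fit on the 4 libraries compared (0.0534), and only Retn kept its call without the second palmitate library and without the first library of the combination. The median of the markers was -0.17 and that of the 10 enzymes -0.09, against -0.00 over all genes. Of 10 preadipocyte and fibroblast markers tested, Col1a1 fell by 0.33 (edgeR adjusted p = 0.000175) and Postn by 0.36 (0.000832), both also called in DESeq2. Col3a1 at -0.15 (edgeR adjusted p = 0.104) and Ly6a at 0.37 (0.0511) were called in DESeq2 only. Acta2 rose by 0.35 (edgeR adjusted p = 0.0305) and was not called in DESeq2 (0.434). Its difference ranged from 0.14 to 0.53 when 1 library was left out. The call was lost without the second palmitate library or the first library of the combination. The part of these markers in the enzyme differences was not tested.

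The fourth comparison asked what palmitate did in cells that also had A66. Of the 4 pairwise comparisons it held the most calls among the 10 enzymes in the main fits, though not over all genes. With no filter on low counts it was level, at 3, with palmitate against untreated and the combination against palmitate. Pck1, Gpat3 and Dgat2 fell, 3 of 10 members against 2.73% of all genes (1.46% higher, 1.27% lower) and 14.6% at an unadjusted p under 0.05, where the members numbered 5. Pck1 dropped to 0.678 of its level with A66 alone (log2 difference -0.56, SE 0.11, 95% interval -0.79 to -0.33, adjusted p = 0.00442). Dgat2 fell to 0.839 of it (-0.25, SE 0.06, adjusted p = 0.00998) and Gpat3 to 0.870 (-0.20, SE 0.04, adjusted p = 0.00995). In all 3 both libraries of the combination lay below both A66 libraries, as they did in 6 of 10 members and in 23.4% of all genes. DESeq2 called Gpat3 and Dgat2 but not Pck1 (adjusted p = 0.195). All 3 calls were lost without the first A66 library, with values of -0.44 for Pck1 (adjusted p = 0.140), -0.19 for Gpat3 (0.187) and -0.17 for Dgat2 (0.362). They were also lost without the first library of the combination, at -0.38 (0.126), -0.16 (0.247) and -0.19 (0.236). In those refits 1 group is a lone library, assumed to vary like the others. Gpam at -0.12 (adjusted p = 0.164), Dgat1 at -0.13 (0.237), Lpin1 at -0.10 (0.355), Agpat3 at -0.09 (0.396) and Gpat4 at -0.07 (0.479) were lower without passing, and Lpin2 at 0.05 (0.726) and Agpat2 at 0.03 (0.852) were higher without passing. This comparison shares its combination libraries with the third and its A66 libraries with the first.

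Of 16 other pathway genes tested, 4 were called in this comparison, 3 lower and 1 higher, while over the whole list 10 had higher and 6 lower values (median log2 difference 0.02). Gpd1 fell by 0.28 on the log2 scale (adjusted p = 0.00141), from 1958 and 1846 CPM with A66 to 1511 and 1616 CPM with the combination. Aqp7 fell by 0.28 (adjusted p = 0.0166), from 54.7 and 49.9 CPM to 41.5 and 44.6 CPM, and Fitm2 by 0.21 (adjusted p = 0.00834), from 230.2 and 214 CPM to 189 and 196 CPM. Pck2, the mitochondrial phosphoenolpyruvate carboxykinase, rose by 0.18 (adjusted p = 0.0284), from 93.9 and 98.5 CPM to 109 and 108 CPM, in the direction opposite to its cytosolic counterpart Pck1. All 4 were called in DESeq2 too. Without the first A66 library all 4 lost their call, at -0.24 for Gpd1, -0.21 for Aqp7, -0.15 for Fitm2 and 0.14 for Pck2. Without the first library of the combination all 4 also lost it, at -0.23, -0.23, -0.18 and 0.17. Pck2 was also lost without the second A66 library (0.21) and without the second library of the combination (0.19). Scaling by library size alone lost it too (edgeR adjusted p = 0.0565). Of the 14 regulators, Ppargc1b, a coactivator of lipogenic and mitochondrial genes, fell by 0.41 (adjusted p = 0.00314), from 19.8 and 19.1 CPM to 14.8 and 14.6 CPM, and lost its call without the first A66 library (0.0811). Both libraries of the combination lay below both A66 libraries in 10 of 14 regulators, against 23.4% of all genes.

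Adipocyte markers were lower together with these enzymes. With palmitate plus A66 against A66 alone, all 12 markers had lower values and 7 fell (Adipoq, Plin1, Cidec, Slc2a4, Retn, Cfd and Lipe), with a median of -0.23 against -0.11 for the 10 enzymes and 0.00 for all genes. DESeq2 called 4 of the 7, and without the first A66 library only Retn of the 7 was still called. The summed markers were 9879 and 9330 CPM with A66 and 8020 and 8801 CPM with the combination, and the summed enzymes were 1436 and 1349 CPM against 1222 and 1305 CPM. Of the preadipocyte and fibroblast markers, 0 of 10 tested were called in edgeR or DESeq2 in this comparison, with 4 at an unadjusted p under 0.05 and a median of -0.01. The part of the adipocyte markers in the enzyme differences was not tested. The marker levels also differed between replicates. The library with the higher marker sum had the higher value for all 10 enzymes under A66, for 8 of 10 with palmitate (all but Gpam and Gpat4), for 8 of 10 with the combination (all but Gpat4 and Lpin2) and for 5 of 10 in untreated cells. The libraries on which these calls in the combination against A66 rest, the first with A66 and the first with the combination, were those with the highest and the lowest marker sum of all 8.

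**Figure D4:**
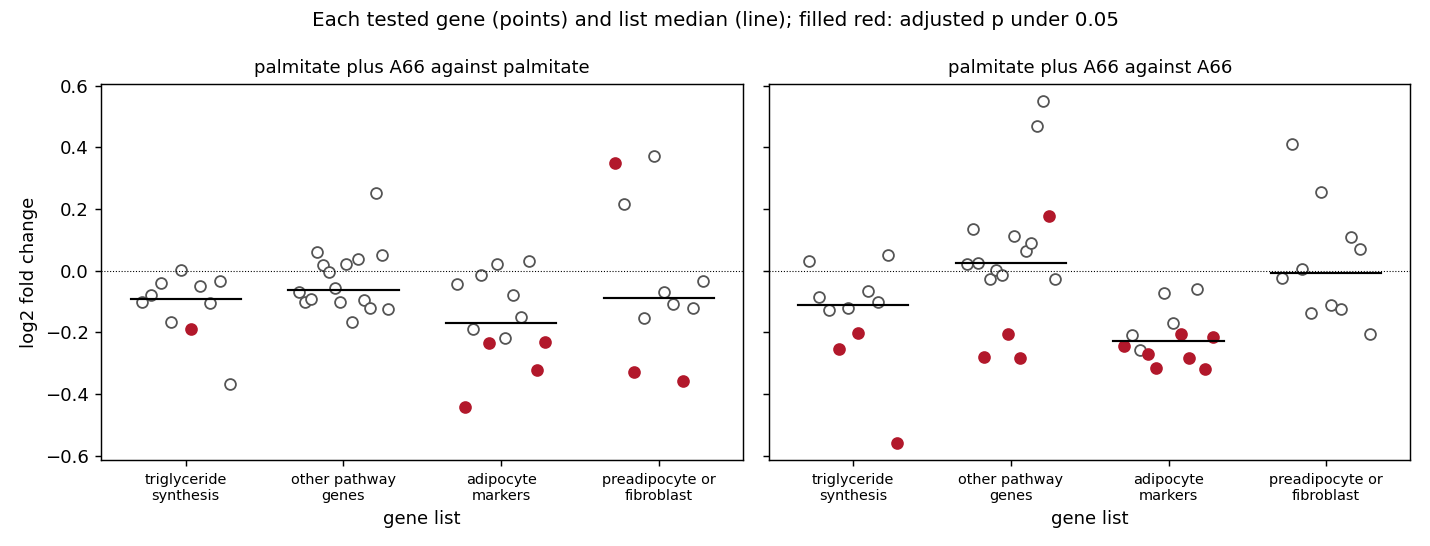
Log2 fold change of each tested gene of 4 lists (the 10 enzymes, other pathway genes, adipocyte markers, preadipocyte or fibroblast markers), with palmitate plus A66 against palmitate on the left and against A66 on the right. Points are genes, filled red where the adjusted p was under 0.05, and lines are list medians. Against A66, the adipocyte markers all lie below 0 with a median of -0.23, and the enzymes have a median of -0.11.

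Whether A66 acted differently with and without palmitate was tested as an interaction over all 8 libraries. No member passed in edgeR or DESeq2, where 0.00686% of all genes did in edgeR, a single gene of 14587. That gene, Hmox1, encodes heme oxygenase, is no member and is named after its value was seen (log2 0.45, adjusted p = 0.00194). With an unadjusted p under 0.05 there were 2 members, against 7.92% of all genes. They were Pck1 at -0.48 (SE 0.16, 95% interval -0.80 to -0.16 and edgeR adjusted p = 0.444) and Gpat3 at -0.14 (SE 0.06, edgeR adjusted p = 0.590). With no filter on low counts Pck1 was called in edgeR, at -0.49 (adjusted p = 4.66e-09), as under no other setting. Leaving out 1 library moved the Pck1 value between -0.69 and -0.24, with adjusted p from 0.0661 to 0.887, the smallest difference being that without the second palmitate library. For Pck1 this is the contrast between a difference of 0.11 with A66 alone and one of -0.37 with A66 on palmitate, and for Gpat3 between -0.04 and -0.19. The other 8 members lay between -0.05 and 0.07, with adjusted p above that of Gpat3. The calls made against palmitate alone and against A66 alone are thus not shown to depend on the presence of the other agent. Of 12 adipocyte markers, 11 had lower interaction values, with a median of -0.15 against -0.03 for the members. None passed in edgeR or DESeq2, and 5 had an unadjusted p under 0.05. Of 10 preadipocyte and fibroblast markers tested, 6 did, and Col1a1 was called lower in DESeq2 only. The part of these markers in the enzyme values was not tested.

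Over the 8 libraries the genes whose pattern was most like that of each of 3 members were found among 8956 genes with a mean of at least 10 CPM, by the correlation of log2 CPM. Nearest to Pck1 were Fuca1 (r = 0.983), Aoc3 (0.975) and Mlycd (0.973). Nearest to Gpam were Pdpr (0.981), Cnst (0.980) and Ermp1 (0.979). Nearest to Dgat2 were Marveld1 (0.990), Cidec (0.987) and Fitm2 (0.982), of which Cidec encodes a lipid droplet protein of adipocytes. Among the members, Dgat2 correlated at 0.951 with Agpat3, 0.944 with Lpin1 and 0.925 with Gpat3, whereas Lpin2 correlated at 0.01 with Pck1 and -0.02 with Gpam. All these points share the same 8 libraries, and the values are a description.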

How the data were processed

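Poly(A) RNA of 8 libraries of 3T3-L1 adipocytes, 2 in each of 4 groups, was sequenced as paired reads after a stranded library kit. Per the labels and the study's methods, reads were mapped by the authors with TopHat 2.0.11 (GRCm38), and HTSeq tallied them on Ensembl genes. The values deposited are these raw counts, with no normalization. The HTSeq version, its strand setting and its annotation are not given in the sources used here. A further 6 columns hold the authors' own DESeq2 comparison (mean, fold change, standard error, statistic, p-value and adjusted p-value) and were not used. Of 43629 genes, 42462 matched a symbol in GENCODE M21.

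Samples were grouped by the treatment in their labels. Counts were tested in R 4.3.3 with edgeR 4.0.16 (TMM, filterByExpr with a minimum count of 10, quasi-likelihood test, Benjamini-Hochberg adjustment over all genes tested, called at an adjusted p under 0.05). A66 against untreated was fitted on the 4 libraries without palmitate, and the other comparisons on all 8. The SE was taken from the log2 difference and its F statistic. Levels are CPM on TMM-scaled library sizes, also per kb of all exonic bases of a gene. Promoters are those of RefSeq on GRCm38.p6. The mean chi-square between the replicates of a group was 6.15 to 8.99, where counting noise gives about 1. No library was thus a copy of its own replicate, and libraries of different groups were not compared this way.

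The 10 genes and all lists (other genes of the pathway, regulators, FOXO and PPAR targets, adipocyte and fibroblast markers) were chosen with earlier results of these data known. Named are all 10 genes in every comparison, every called gene of the pathway and regulator lists (the 4 with the smallest p had more than 4 been called), up to 2 genes of each FOXO and PPAR list, and the 3 genes most like Pck1, Gpam and Dgat2. The marker genes, the genes called in DESeq2 only and Lpin3 were named after their values were seen. Alternatives were RLE and library-size scaling, DESeq2 1.42.0, no filter, at least 10 counts in every library, the replicate number as a block, a correction for transcript length (loess, span 0.4, known for at least 99.1% of genes tested), other libraries in the fit and leaving out each library. The length of the longest coding transcript was added after the data were seen. The scripts were tested on simulated counts in which 200 genes differed by 0.5 on the log2 scale. In the A66 comparison (14158 genes) 188 of the 200 were recovered among 193 calls, 5 of them false. In the palmitate comparison (14587 genes) 189 of the 200 were recovered among 207 calls, 18 of them false. The differences called among the members, Pck1 apart, were smaller than 0.5, and recovery at their size was not measured.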

Additional observations from a re-analysis of the deposited data

How the results depend on the processing

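Settings other than leaving out 1 library, among them fits on other sets of libraries, were counted first. Of the members' log2 differences and calls under them, 420 kept their direction and their side of the threshold. A further 13 passed only under the alternative, 1 was lost (Pck1 in the combination against A66, in DESeq2) and 6 reversed. With 1 library left out, 192 kept both, 8 newly passed, 12 were lost and 28 reversed. The causes were not tested, except that a refit without a library has fewer samples and a lone library in 1 group, assumed to vary like the others.

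The number of members called for A66 against untreated was 0, and 1 (Lpin1) with scaling by library size alone, with no filter, with at least 10 counts in every library, with the transcript length correction, with the replicate block and with both of the last. For palmitate it was 1, and 2 by library size alone (Dgat2 and Gpam) or 3 with no filter (also Lpin1). For the combination against palmitate it was 1, and 2 by library size alone (Gpat3 and Pck1) or 3 with no filter (also Dgat2). For the interaction it was 0, and 1 with no filter (Pck1). Without a library it ranged from 0 to 2 for A66, 0 to 1 for palmitate, 0 to 3 for either comparison of the combination and stayed at 0 for the interaction.

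Over all genes, no filter gave 459 calls for A66 (261 with the filter), 396 for palmitate (171), 652 for the combination against palmitate (410), 664 for the combination against A66 (398) and 91 for the interaction (1). A fit on only the 4 libraries compared gave 689 for the combination against A66. The interaction had 2 calls by library size alone, 21 in DESeq2 and 3 with the replicate block. Without a library the counts ranged from 98 to 635 for A66, 71 to 245 for palmitate, 147 to 426 and 107 to 346 for the combination against palmitate and against A66, and 0 to 10 for the interaction. Scaling by library size alone moved the split of calls to 126 higher and 154 lower for A66 (152 and 109 with TMM), 83 and 105 for palmitate (92 and 79), 107 and 350 for the combination against palmitate (142 and 268), and 180 and 266 for the combination against A66 (213 and 185).

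The replicate numbers come from the labels, which name no pairing. Deviations of same-numbered libraries from their group means correlated between -0.15 and 0.15 over 8956 genes. With 2 libraries per group this cannot decide whether same-numbered cultures shared a batch, so pairing stays unknown. With the replicate block Lpin1 had an adjusted p of 0.0326 for A66 in edgeR, no other member's call changed, and the calls over all genes were 282, 195, 448 and 438 in the 4 pairwise comparisons.

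Reversals with all libraries were of values near 0. Gpam in the combination against palmitate stood at -0.016 by library size alone, -0.00073 with no filter, -0.00147 with the length correction and -0.00152 with that and the replicate block. Agpat2 in the interaction stood at 0.0039 with the length correction and 0.0030 with that and the replicate block. Log2 differences that changed sign without a library ranged, for A66, from -0.014 to 0.226 (Pck1), -0.083 to 0.0092 (Agpat3) and -0.064 to 0.052 (Dgat1). For palmitate they ranged from -0.318 to 0.124 (Pck1), -0.030 to 0.144 (Agpat2) and -0.057 to 0.025 (Lpin2). For the combination against palmitate they ranged from -0.035 to 0.040 (Gpam), -0.077 to 0.0083 (Lpin2) and -0.131 to 0.057 (Dgat1), and against A66 from -0.021 to 0.088 (Agpat2). For the interaction they ranged from -0.112 to 0.063 (Agpat2), -0.041 to 0.0031 (Gpat4), -0.086 to 0.0050 (Agpat3), -0.119 to 0.067 (Dgat1) and -0.131 to 0.026 (Dgat2). Depth limited none of the members, whose lowest level in any library was 47.8 CPM.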

Other observations

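With palmitate plus A66 against A66 alone, 3 of 10 FOXO targets had higher and 7 lower values (median log2 difference -0.08), and in 6 the groups did not overlap in the lower direction, against 23.4% of all genes. Pik3ip1, an inhibitor of PI3-kinase, rose by 0.21 on the log2 scale (edgeR adjusted p = 0.0284), and Klf15, a transcription factor of fasting metabolism and adipogenesis, fell by 0.26 (edgeR adjusted p = 0.00234). Of 10 PPAR targets 5 had higher and 5 lower values (median 0.02), and Plin2, the coat protein of lipid droplets, rose by 0.21 (edgeR adjusted p = 0.00737). Against palmitate alone, Pik3ip1 rose by 0.19 (edgeR adjusted p = 0.0499) and Klf15 fell by 0.19 (edgeR adjusted p = 0.0278), and no PPAR target of 10 passed in edgeR, with 4 at an unadjusted p under 0.05, while Plin2 passed in DESeq2. With palmitate in cells without A66, Bcl6, a transcriptional repressor, fell by 0.21 (edgeR adjusted p = 0.0284), the only FOXO target of 10 to pass. The Pik3ip1 call against palmitate was also lost in DESeq2 (adjusted p = 0.0631), with the replicate block (0.0533) and by library size alone (0.0911), and its call against A66 by library size alone (0.0514). Without 1 library, the call of Bcl6 and both calls against palmitate were lost for each of the 4 libraries compared, while the differences ranged from -0.22 to -0.21 for Bcl6, -0.21 to -0.18 for Klf15 and 0.15 to 0.23 for Pik3ip1. Of the 3 genes called against A66, only Klf15 kept its call without any of the 4 libraries compared.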
